A study of Mus musculus with 16 samples.

Results

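The fibroblasts described here were the cells of the mouse thoracic aorta that held transcripts of at least 2 of the 4 genes Chad, Thbs4, Cilp2 and Ucma. They were thus chosen by the measured counts of these 4 genes. Before that, cells had to show between 600 and 6000 genes, a total between 2000 and 50000 unique molecular identifiers (UMIs, each tagging 1 captured RNA molecule) and mitochondrial UMIs under 25%. A kept cell counted as a fibroblast when it held at least 5 UMIs of Dcn, the proteoglycan decorin, and more of Dcn than of Myh11, the myosin heavy chain of smooth muscle. This gave 36066 fibroblasts among 50858 kept cells, and 589 of them (1.63%) met the rule. They are called the members below, and the 35477 remaining fibroblasts of the same libraries are the comparison.

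Cartilage is made by chondrocytes, which secrete a gel of the proteoglycan aggrecan held in a network of type II, IX and XI collagens. Sox9, with Sox5 and Sox6, drives that program. Tendon and ligament cells instead lay down type I collagen bundles under the factor scleraxis (Scx), and cells at the sites where tendon inserts into cartilage or bone use both programs. In the aorta, cartilage-like cells are known mainly from the root, near the valve hinges, and from calcified lesions. Chad (chondroadherin) is a leucine-rich protein of cartilage that binds collagen and integrins. Thbs4 is a thrombospondin of tendon and muscle matrix, Cilp2 a relative of cartilage intermediate layer protein, and Ucma a small secreted protein of cartilage that carries gamma-carboxyglutamate residues.

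The study asked how the aorta changes over time when vascular smooth muscle loses Smad3, through which TGF-beta receptors act on transcription. Each of 16 libraries came from 1 mouse of the 129S6/SvEv background, and both genotypes carried the Y-linked Myh11-CreER transgene, so all mice were male. Controls (Smad3+/+) and mice with floxed Smad3 (Smad3SmKO) both received tamoxifen from 6 weeks of age. There were 5 and 7 libraries at 18 weeks after deletion (24 weeks of age) and 2 and 2 at 10 weeks (16 weeks of age), in the same order. The Cre is driven by a smooth muscle promoter, so the model targets smooth muscle and not fibroblasts. Tissue ran from the root to the arch and was digested for 30 or 60 min, and cells were sorted as stained by a DNA dye and free of propidium iodide. The 10-week libraries formed 1 batch of their own, digested for 60 min, so time and batch cannot be told apart.

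The deposited libraries held between 12539539 and 52843031 UMIs. Members were found in 15 of the 16 libraries, and the 12 libraries with at least 10 members, holding 566 of the 589, entered every test of gene levels. The members had a median of 10951 UMIs per cell and the other fibroblasts 8419. Among kept cells any pair of libraries shared at most 11 barcodes, and at most 0.363% of the smaller library. Among deposited barcodes, Smad3+/+ replicates 4 and 5 at 18 weeks shared 3507, of which 2 were kept in both, and replicate 5 shared 920 with Smad3SmKO replicate 5 at 18 weeks, of which 7 were kept in both. Some results are also given below without Smad3+/+ replicates 4 or 5 at 18 weeks. Those without Smad3SmKO replicate 5 lie within the ranges given below for leaving out 1 library. The GFP tracer named in the labels is a conditional EGFP-L10a allele switched on by Myh11-CreER, so it marks cells recombined at the time of tamoxifen and cells that came from them. Its label did not match the GFP counts in 4 libraries: both Smad3SmKO libraries at 10 weeks were labelled None and held GFP UMIs, and Smad3+/+ replicates 4 and 5 at 18 weeks were labelled Myh11-GFP and held 0. Smad3 itself, in cells with more Myh11 than Dcn, was 7.44 ± 2.79 CPM (the gene's share of all UMIs in the summed cells, on the usual CPM scale; SD, n = 5) in Smad3+/+ and 9.32 ± 4.37 (n = 7) in libraries labelled Smad3SmKO at 18 weeks. At 10 weeks it was 5.04 ± 0.501 (n = 2) and 6.63 ± 2.05 (n = 2). These libraries count the 3′ ends of transcripts, which need not fall when another part of the gene is deleted, so this is no check of the deletion. The paper did check it in aortas, and reported significantly less Smad3 protein by immunoblot and RNA by qPCR in Smad3SmKO mice. Genotype is given below as the label states it. A deposited feature named Sm3_intact held 0 UMIs.

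The rule fixed the levels of its own 4 genes, which are given as a description. Levels are CPM in the UMIs summed over the members of a library, as the lowest, median and highest of the 12 libraries. Chad (chromosome 11, 94565047 to 94569127, GRCm38) was at 688, 1618 and 4457 CPM in the members and at 10.3, 24.3 and 93.2 in the other fibroblasts. Thbs4 (chromosome 13, 92751590 to 92794818) was at 214, 495 and 2612 against 0.652, 5.37 and 39.6. Both were found in most members, Chad in 80.8% and Thbs4 in 55.9%. Cilp2 (chromosome 8, 69880369 to 69887687) was at 94.2, 259 and 616 against 0.106, 0.423 and 2.13, with a UMI in 69.4% of members. Ucma (chromosome 2, 4976122 to 4985748) was the sparsest, at 26.1, 102 and 289 against 1.30, 4.32 and 24.5, with a UMI in 31.9%. For all of the 4 the lowest member value was above the highest value in the other fibroblasts, as the rule arranges. Spp1 (osteopontin, a secreted phosphoprotein of bone that also marks injured tissue), named with the rule genes as a marker, varied widely between mice, at 224, 3951 and 16040 CPM against 8.38, 59.0 and 418. A UMI of it was found in 53.3% of members and 7.50% of other fibroblasts.

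**Figure D1:**
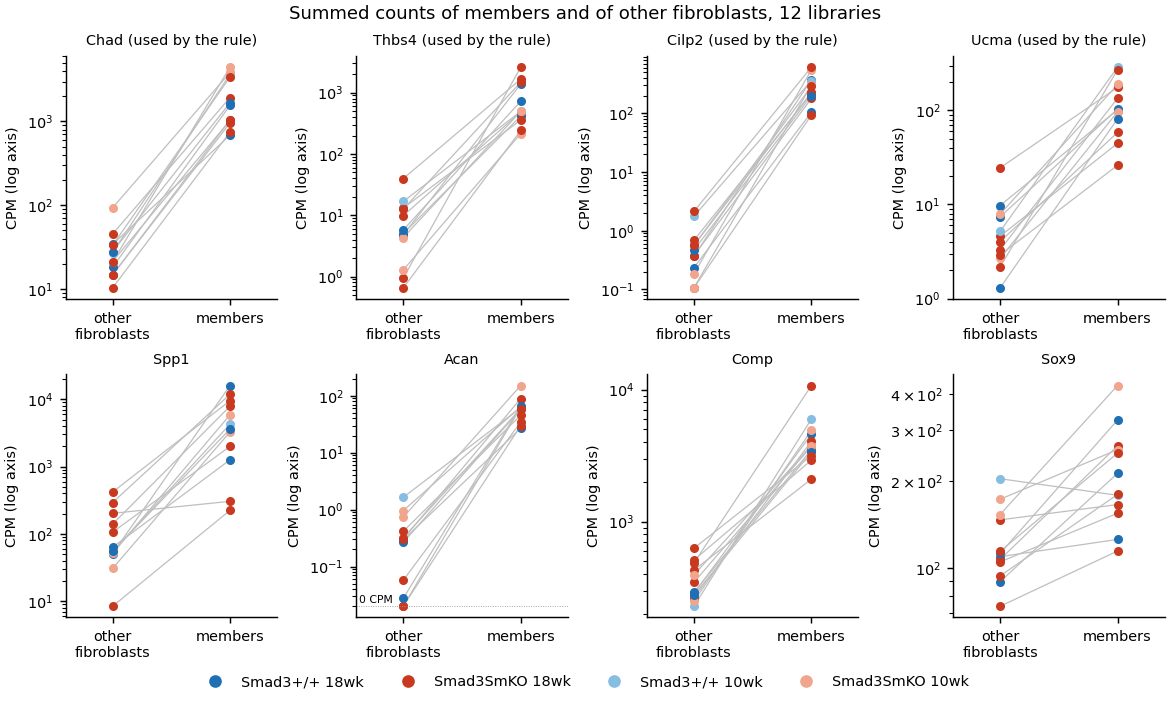
Each panel plots 1 gene as CPM on a log axis, with 1 point per library for the members and 1 for the other fibroblasts, coloured by genotype label and time. The rule genes Chad, Thbs4, Cilp2 and Ucma separate by construction, Spp1 spreads from 224 to 16040 CPM among the members, Acan and Comp lie higher in the members of all 12 libraries, and Sox9 overlaps.

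The members rarely held every rule gene. Of the 589, 395 held 2 of the genes, 164 held 3 and 30 held all 4, and a further 2666 fibroblasts held 1 and lay just outside the rule. The pair Chad and Cilp2 alone accounted for 176 members (29.9%), Chad with Thbs4 and Cilp2 for 109 (18.5%), and Chad with Thbs4 for 75 (12.7%). Among all fibroblasts, Chad was found in 64.2% of the cells with Cilp2 and in 4.51% of those without. Cells with 2 of the genes differed from cells with 1 at nearly the same depth (median 10418 and 10320.5 UMIs): Spp1 was found in 49.4% against 14.9%, Comp in 87.6% against 46.3%, Col11a1 in 48.1% against 10.8% and Sox9 in 68.6% against 53.3%. No test is attached to these steps.

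Free RNA in droplets could place single UMIs of these genes in any cell. Among 8950 cells of a smooth muscle gate, 3 met the 2-of-4 rule, against 2 of 1232 endothelial cells and 0 of 1395 leukocytes (which allows a share of up to 0.215%). The median depths there were 7954, 6957.5 and 7255 UMIs. Chad was found in 0.637%, 3.08% and 0.287% of these cells, in the same order, and in 4.14% of the other fibroblasts.

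The sequences below show the region around the start of a gene that the rule used and of 1 of the 15 genes that rose most, chosen because its window held the rarest motif searched. They are the 250 bases before and 50 bases after the RefSeq start (GRCm38.p6), 5′ to 3′ on the plus strand. Capitals mark the 2 copies of TGAACT, the reverse complement of AGTTCA, which is the motif bound singly or as a repeat by retinoic acid receptors.
Chad promoter, chr11:94564797-94565096: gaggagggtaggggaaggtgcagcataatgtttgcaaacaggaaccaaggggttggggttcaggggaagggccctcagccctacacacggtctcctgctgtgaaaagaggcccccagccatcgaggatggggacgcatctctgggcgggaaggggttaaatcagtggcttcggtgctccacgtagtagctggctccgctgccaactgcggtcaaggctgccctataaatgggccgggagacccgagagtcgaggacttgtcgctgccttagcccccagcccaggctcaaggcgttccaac
Cyp26a1 promoter, chr19:37697558-37697857: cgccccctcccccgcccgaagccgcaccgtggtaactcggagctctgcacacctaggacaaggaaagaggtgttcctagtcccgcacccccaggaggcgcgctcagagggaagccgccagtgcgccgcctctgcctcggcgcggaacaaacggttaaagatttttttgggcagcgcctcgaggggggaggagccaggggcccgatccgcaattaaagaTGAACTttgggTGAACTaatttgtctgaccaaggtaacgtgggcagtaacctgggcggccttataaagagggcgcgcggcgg
The copies in Cyp26a1 begin 32 and 21 bases before the start, and the spaced repeat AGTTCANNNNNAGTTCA was found, on either strand, in 7 of 27025 RefSeq windows of this length (0.0259%). The single AGTTCA was in 14.0% of all windows and in 1 of the 11 windows that matched the 15 leading genes. A SOX-type motif, ACAATG, was in 12.8% of all windows and in 0 of the 11, and a scleraxis-type E-box, CATCTG, in 17.2% and in 0. A match is a description of these letters and not of binding.

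Members and other fibroblasts of the same library were then compared across genes with edgeR's quasi-likelihood test, with the library as a block. A gene was called at a Benjamini-Hochberg adjusted p under 0.05 and a log2 difference of at least 1. Of 11441 tested genes, 406 were higher in the members (3.55%) and 654 lower (5.72%), and of these 137 and 363 moved the same way in all 12 libraries, where 2% of tested genes were above and 5.82% below whether called or not. At any size, 23.8% had an adjusted p under 0.05. The rule genes and Spp1 were left out of the calls. All adjusted p values for this comparison come from that test, and the median log2 difference over all tested genes was -0.04.

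Cartilage matrix genes were higher in the members. Of 14 tested, 13 rose, 0 fell and 1 did not pass, with a median log2 difference of 2.80. Over all tested genes 3.55% were called higher. This list and those below were chosen with earlier results of these data known, and the rule picked cells by related matrix genes. A gene could also pass the count filter through the members alone. The counts per list are thus a description and no separate support. Acan, the aggrecan core protein, was at 26.9, 60.7 and 151 CPM in the members and at 0, 0.299 and 1.64 in the other fibroblasts. Its groups of libraries did not overlap, and its log2 difference of 7.50 ± 0.344 (SE; adjusted p = 5.23e-13) was the largest rise among the called genes that were higher in all 12 libraries. An Acan UMI was found in 122 members (20.7%) and in 0.228% of the other fibroblasts. Comp, the cartilage oligomeric matrix protein that cross-links collagen fibrils, was at 2099, 3747 and 10741 CPM against 228, 319 and 628, a log2 difference of 3.56 ± 0.191 (adjusted p = 5.02e-12). It was the most widely detected gene of the list, in 90.3% of members against 30.2%.

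The minor fibrillar collagen chains rose with aggrecan. Col11a1 was at 97.6, 140 and 275 CPM against 4.88, 11.9 and 18.9 (log2 difference 3.69), and its partner Col11a2 at 13.7, 39.5 and 89.9 against 0.369, 1.07 and 3.18 (4.93). The type IX chains Col9a3 and Col9a1, which coat type II fibrils, differed by 4.02 and 3.35, and Hapln1, the link protein that fastens aggrecan to hyaluronan, by 3.09. Cytl1, a cytokine-like protein of cartilage, was at 1200, 3284 and 7892 CPM against 443, 571 and 762 (2.50). Prg4, the lubricin of joint surfaces, was at 1265, 3956 and 8068 against 238, 615 and 1809 (2.41). Matn4, Cilp, Epyc and Chadl differed by 2.31, 2.14, 1.74 and 1.02. Cnmd, the anti-angiogenic chondromodulin, did not pass, at 0.96 (adjusted p = 0.223).

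Type II collagen, the defining fibril of cartilage, was sparse. Col2a1 was too low to be tested, at 0, 17.3 and 142 CPM in the members, from 220 UMIs in 24 cells (4.07%), and it was found in 0.0987% of the other fibroblasts. Clec3a, a cartilage lectin, was likewise untested, with 110 UMIs in 57 members (9.68%) and a UMI in 0.00846% of the others. Col9a2 had 110 UMIs in 10.5% of members. Matn1 was at 0 in the members, and Matn3 gave 4 UMIs.

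Regulators of cartilage were higher by smaller amounts. Of 10 tested, 5 rose and 0 fell, with a median log2 difference of 1.03. Wwp2, the host gene of a cartilage microRNA, rose by 2.35, the parathyroid hormone receptor Pth1r by 1.79, Sox6 by 1.77, Trps1 by 1.31 and Sox5 by 1.17. Sox9 was at 115, 196 and 429 CPM in the members and 73.7, 111 and 204 in the others, and was higher in the members of 11 of 12 libraries. Its log2 difference was 0.89 ± 0.128 (adjusted p = 1.21e-05), under the required size, so Sox9 was present in both kinds of fibroblast at overlapping levels. Runx2, Foxc1, Pthlh and Fgfr3 did not pass.

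Tendon and ligament genes rose as well, so the name cartilage-like covers only part of what the members expressed. Of 11 tested, 7 rose and 1 fell (median log2 difference 1.41). Scx, the tendon factor, was at 146, 232.2 and 408 CPM against 10.9, 16.8 and 37.3, a log2 difference of 3.73 ± 0.157 (adjusted p = 1.49e-13) with no overlap between the groups. The keratan sulphate proteoglycan Kera differed by 5.10, Tnc (tenascin C) by 3.56, Fmod (fibromodulin) by 2.92, Col12a1 by 1.84, Tnmd (tenomodulin, a marker of mature tendon) by 1.41 and Thbs2 by 1.25. Col14a1, which decorates collagen fibrils, fell by 2.22. Lum, Egr2 and Tppp3 did not pass, and Mkx was not tested.

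**Figure D2:**
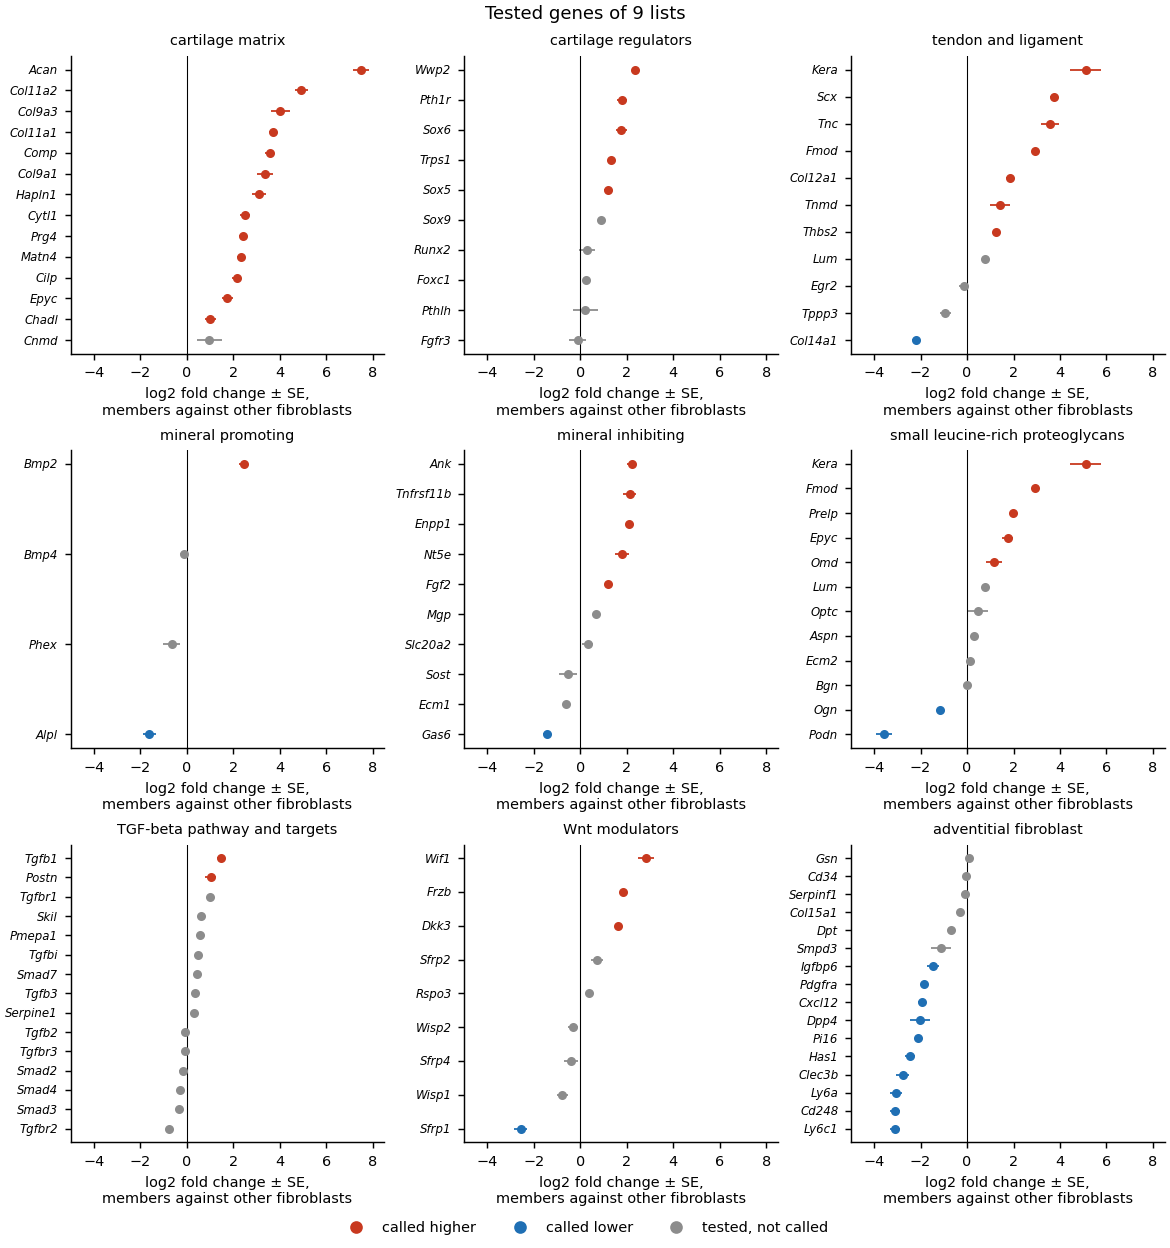
Each panel shows the tested genes of 1 list with the log2 difference between members and other fibroblasts on the x axis and its SE as a bar, red where called higher, blue where called lower and grey where not called. The cartilage matrix genes lie to the right up to 7.50 for Acan, and most adventitial genes lie left of 0, down to -3.10 for Ly6c1.

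Genes that act on mineral moved in both directions. Among promoters of mineralisation, Bmp2, a bone morphogenetic ligand, rose by 2.46, and Alpl, the phosphatase that destroys the inhibitor pyrophosphate, fell by 1.61, while Bmp4 and Phex did not pass (1 higher and 1 lower of 4, median -0.40). The bone genes of that list were too sparse to be tested, and without the filter on low counts 5 of 9 were higher and 1 lower, with a median of 2.36. Sp7 (osterix) was found in 30 members (5.09%) and 0.0902% of the other fibroblasts, Ibsp in 10 (1.70%) and 0.0676%, and Bglap in 9 (1.53%) and 0.319%. Mepe was found in 0 of 589 members, which allows up to 0.509% to hold a UMI and is no limit on expression. Among inhibitors, 5 of 10 rose and 1 fell (median 0.93). Those that rose were Ank (2.21) and Enpp1 (2.09), which supply extracellular pyrophosphate, Tnfrsf11b (2.11), which encodes osteoprotegerin, Nt5e (1.80) and Fgf2 (1.18). Gas6 fell by 1.43. Mgp, the matrix Gla protein that keeps arteries free of calcium, was at 17382, 29237 and 54100 CPM against 13250, 20044 and 33987 in the others, and its log2 difference of 0.67 (adjusted p = 2.58e-05) was under the required size.

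Other matrix families moved in both directions. Among 12 small leucine-rich proteoglycans, which regulate collagen fibril width, 5 rose and 2 fell. Prelp was at 1336, 1816 and 2273 CPM against 331, 458 and 600 (log2 difference 1.99), and Podn fell by 3.59 and Ogn by 1.18. Of the thrombospondins not used by the rule, Thbs1 rose by 2.91, besides Thbs2 and Comp, and Thbs3 fell by 1.03. Of 18 further collagen chains, 2 rose (Col8a2, a short-chain collagen, by 3.37, and Col12a1) and 3 fell, and the main fibrillar chains Col1a1, Col1a2 and Col3a1 did not pass.

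More elastic fibre genes fell than rose. Of 19 tested, 4 fell and 2 rose, with a median of -0.59. More genes fell than rose over all tested genes as well, 5.72% against 3.55%. Eln, elastin, was at 84.8, 300 and 816 CPM in the members and 145, 750 and 1680 in the others (fell by 1.29), and the fibulin genes Efemp1 and Fbln2 and the microfibril gene Mfap5 fell by 2.72, 2.10 and 1.52. The crosslinking enzyme Loxl2 and the latent TGF-beta binding protein Ltbp2 rose, by 1.67 and 1.60. Among matrix receptors, the collagen-binding integrin chains Itga10 and Itga1 rose by 2.16 and 1.17 and 12 of 14 did not pass. Of 14 tested proteases and their inhibitors, 4 fell and 0 rose. The aggrecanase genes Adamts4 and Adamts5 fell by 2.45 and 1.91, Adamts1 by 1.90 and Mmp19 by 1.70.

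In signalling pathways the genes called were mostly ligands and other secreted proteins. Of 15 tested genes of the TGF-beta pathway, 2 rose: the ligand Tgfb1, at 49.9, 260 and 481 CPM against 48.1, 87.6 and 237 (log2 difference 1.48), and the target Postn (1.02). The receptor Tgfbr1 lay just under the required size at 0.98 and was higher in all 12 libraries, and Smad2, Smad3 and Smad4 did not pass. Among BMP pathway genes, the antagonist Chrdl1 rose by 1.83, and the ligands Bmp5 and Gdf10 fell by 3.45 and 2.27. Of 9 Wnt modulators, 3 secreted ones rose and 1 fell. Wif1, which binds Wnt proteins, was at 370, 1185 and 3371 CPM against 42.6, 178 and 381 (2.84), Frzb rose by 1.85 and Dkk3 by 1.61, and Sfrp1 fell by 2.56.

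The 15 genes with the largest rises that held in all 12 libraries were a mixed group, of which Acan, Col11a1, Col11a2 and Scx were on the cartilage or tendon lists. Cyp26a1 (chromosome 19, 37697798 to 37701536), the enzyme that breaks down retinoic acid and whose start region is printed above, was at 25.1, 122 and 265 CPM against 0, 0.956 and 2.26. Its log2 difference was 6.79 ± 0.295 (adjusted p = 2.27e-13), and 29.7% of members held a UMI of it against 0.476% of the others. 1500015O10Rik, the older symbol of the secreted augurin precursor Ecrg4, was the most abundant of the 15, at 529, 4050 and 9091 CPM against 129, 292 and 415 (3.86). The others were Eps8l2 (6.35), Uts2r, the urotensin II receptor (5.52), Wfdc2 (4.78), Sdk2 (3.84), Fzd9, a Wnt receptor (3.81), Ank3 (3.81), the potassium channel Kcnj15 (3.78), the water channel Aqp5 (3.73) and Fgf1 (3.57). Wfdc2 rested on 37 UMIs in the members.

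Because Cyp26a1 stood so high, some other retinoid genes were looked up after its value was seen. Aldh1a2, which makes retinoic acid, fell by 4.07 and gave 4 UMIs in the members, and the receptor Rarb rose by 1.05. Rarg and Cyp26b1 were at 0.47 and -0.26 and were not called.

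Genes of ordinary adventitial fibroblasts were lower. Of 16 tested, 10 fell and 0 rose (median -1.90). Pi16, which marks the broad adventitial population, was at 99.9, 445 and 617 CPM in the members and 1194, 1560 and 2128 in the others, with no overlap (fell by 2.09). Ly6a (Sca-1) was at 15.2, 138 and 588 CPM against 593, 1013 and 1970 (fell by 3.07). Ly6c1, Cd248, Clec3b, Has1, Dpp4, Cxcl12, Pdgfra and Igfbp6 also fell, by between 1.47 and 3.10, whereas Cd34 stayed at a difference of -0.03 and was found in 88.5% of members.

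The deepest falls that held in all 12 libraries were mostly, but not only, in genes of secreted and membrane proteins. Duoxa1, Fgf10 and Plxnc1 gave 0 UMIs in the members, so that against a floor of 3 counts over the group the other fibroblasts were at least 14.1-, 10.9- and 8.55-fold higher. Cpz gave 1 UMI in the members, and the other fibroblasts were 166-fold higher (95% counting interval 29.8 to 6571). For Cxcl5, with 2 UMIs, the ratio was 118 (32.7 to 977), for Apoc1, with 1, it was 53.6 (9.61 to 2118), and for Dnmt3l, with 1, it was 45.1 (8.09 to 1783). These intervals cover counting error only. The chemokines Ccl11 and Cxcl14 fell by 5.54 and 5.52 and the haptoglobin gene Hp by 5.71.

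Markers of other cell types were seldom higher in the members than in the other fibroblasts. Smooth muscle genes summed to 457 to 4487 CPM in the members and 711 to 4129 in the others, and 2 of 9 tested (Myl9 and Actg2) were lower and 0 higher. Endothelial markers summed to 6.87 to 179 against 47.7 to 113 CPM, and 3 of 5 were lower. Leukocyte markers summed to 11.2 to 651 against 152 to 991 CPM, and 7 of 7 were lower. After cells with a UMI of Ptprc, Pecam1 or Myh6 were removed, 1 of 6 tested leukocyte markers was lower, and the share of members with such a UMI was 9.68% against 14.0% of the others. The tested markers of neutrophils (2), Schwann cells (1) and heart muscle (1) were all lower. Markers of mesothelium, antibody genes and haemoglobin were too sparse to test, at up to 309, 90.5 and 2.99 CPM in the members and up to 14.2, 815 and 9.15 in the others. Cspg4, on the pericyte list, was higher by 2.46, and 3 of the 5 tested pericyte markers were lower. Of 20 genes induced by tissue digestion 0 were called (median -0.20). No doublet caller was run, so doublets were limited only by the upper bounds on genes and UMIs, and their part in these values was not tested.

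The members were then split by the pair Chad and Cilp2, which had been co-detected most often. Of the 589, 343 (58.2%) held both and 246 did not, at median depths of 10588 and 11659.5 UMIs, and 11 libraries had at least 5 of each. The split was chosen with these values in view, so they are a description without a test. Spp1 was at 10210 ± 9052 CPM (SD, n = 11) with the pair and 879 ± 1527 without, higher with the pair in 11 of 11 libraries, and found in 71.1% against 28.5% of cells. Cytl1 was at 5881 against 1293 CPM, likewise higher in 11 of 11, and Comp at 5772 against 2726, higher in 10. Acan was at 103 against 23.5 CPM (10 of 11), and 113 of the 122 members with Acan (92.6%) held the pair. Almost all type II collagen lay there too, with 219 of 220 Col2a1 UMIs in cells with the pair.

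Other genes did not follow the pair, and some ran the other way. Scx was at 264 against 223 CPM and higher with the pair in 7 of 11 libraries, and Sox9 at 218 against 253 and higher in 4. Kera was at 3.33 against 57.4 CPM and higher with the pair in 1 of 11, Postn at 565 against 928 (3 of 11) and Prg4 at 3448 against 4489 (6 of 11). The 47 members with Thbs4 and Ucma alone held 0 Acan UMIs (which allows up to 6.38% of such cells to hold a UMI, and is no limit on expression) and Spp1 in 4 cells (8.51%), but Wif1 in 93.6%, Prg4 in 97.9% and Postn in 89.4%. The share of members with the pair ran from 5% in Smad3SmKO replicate 1 at 18 weeks to 89.4% in Smad3SmKO replicate 1 at 10 weeks. By digestion time it was 5% to 62.1% in the 7 libraries digested for 30 min and 55.9% to 89.4% in the 8 libraries digested for 60 min that held members. The part of digestion or batch in the split was not tested.

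**Figure D3:**
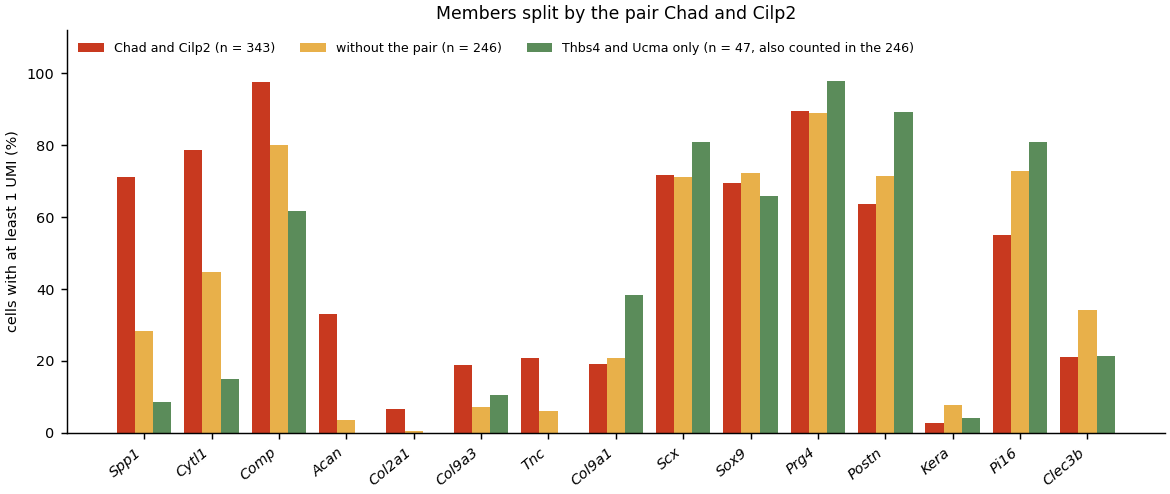
Bars give the percent of cells with at least 1 UMI of each gene, from 0, for the 343 members with Chad and Cilp2, the 246 without the pair, and the 47 with Thbs4 and Ucma only, which are also counted in the 246. Spp1 and Acan are found more often with the pair, and Prg4 and Postn reach 97.9% and 89.4% in the 47.

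The members were also set against other ways of picking fibroblasts by marker genes. Of 1252 fibroblasts with Coch and Wif1, 30 were members, which is 5.09% of the members, and 3.44% of the other fibroblasts met that rule. At least 2 of Tnfrsf11b, Dio2 and Hhip were found in 13.9% of members and 14.3% of others. At least 2 of Hsd11b1, F3 and Vegfd were found in 8.32% of members and 37.0% of others, and at least 2 of Has1, Spon2 and Cxcl5 in 1.02% and 7.90%. These shares are over cells pooled across mice.

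The share of fibroblasts that were members was compared between genotype labels at 18 weeks, with 1 value per mouse. In Smad3+/+ it was 3.63%, 0.948%, 0.573%, 0.362% and 1.33% in replicates 1 to 5. In libraries labelled Smad3SmKO it was 2.19%, 2.44%, 1.65%, 1.86%, 2.61%, 1.24% and 0%. The groups overlapped, with replicate 1 of Smad3+/+ highest and replicate 7 of Smad3SmKO, with 0 of 196 fibroblasts (which allows a share of up to 1.53%), lowest. The means were 1.37 ± 1.32% (SD, n = 5) and 1.71 ± 0.889% (n = 7), and the difference of 0.345 percentage points gave p = 0.598 in an exact two-sided permutation test over 792 splits. Within batches the mean difference was 0.335 (exact permutation p = 0.639, 36 arrangements), with -1.58 in batch 1, 1.62 in batch 2, 0.915 in batch 3 and 0.390 in batch 6. It was 0.320 in the 30-min libraries (exact permutation p = 0.8) and 0.435 in the 60-min libraries (p = 1). Without Smad3+/+ replicate 1 the difference was 0.909 (exact permutation p = 0.103), without Smad3+/+ replicate 4 it was 0.0931 and without Smad3SmKO replicate 7 it was 0.630. Without Smad3+/+ replicates 4 and 5, which shared deposited barcodes, it was -0.00347 (exact permutation p = 1).

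At 10 weeks the share was 0.616 ± 0.282% (n = 2) in Smad3+/+ and 2.26 ± 0.181% (n = 2) in the libraries labelled Smad3SmKO, without overlap. With 2 against 2 the exact two-sided permutation test cannot go below its value of p = 0.333. Both libraries labelled Smad3SmKO at 10 weeks are among those whose tracer label did not match the GFP counts. After each cell was thinned to 2000 UMIs the shares were 0.363% and 1.42%.

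**Figure D4:**
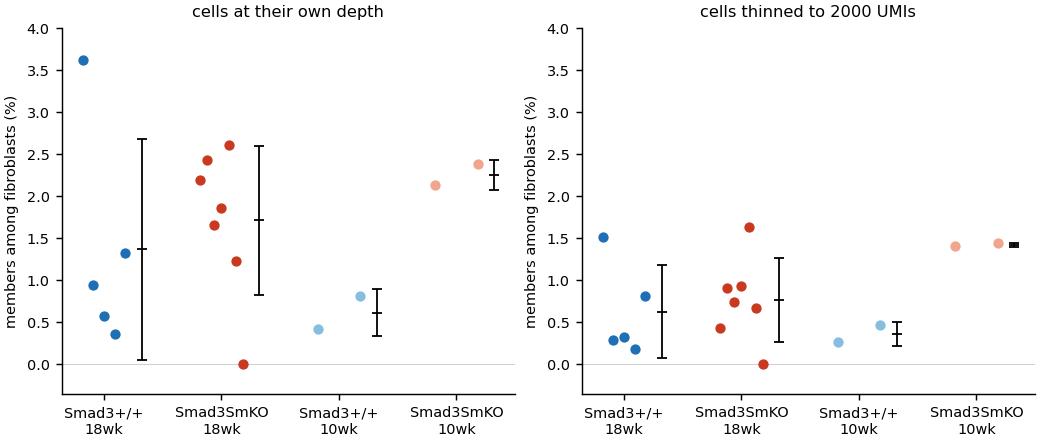
Points are libraries and show the percent of fibroblasts that were members, by genotype label and weeks after deletion, with the mean and SD beside them, for cells at their own depth and for cells thinned to 2000 UMIs. At 18 weeks the groups overlap from 0% to 3.63%, and at 10 weeks the 2 libraries labelled Smad3SmKO lie above the 2 controls.

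Gene levels within the members were compared between genotype labels at 18 weeks, in 3 Smad3+/+ and 6 Smad3SmKO libraries, with edgeR's quasi-likelihood test and batch as a covariate. Of 6798 tested genes 0 were called at an adjusted p under 0.05 (0%), 146 (2.15%) had an unadjusted p under 0.05, and DESeq2 called 0, with 26 at an unadjusted p under 0.05. The fitted Smad3SmKO replicates 1 and 5 had no fitted control in their batch, so the batch term absorbed them and the estimate rested on 3 against 4 libraries. Without Smad3+/+ replicate 5 edgeR again called 0 genes, with 221 at an unadjusted p under 0.05. The groups of libraries did not overlap for 55 genes (0.809%). Acan, Comp and Spp1, which were higher in the members than in other fibroblasts, stayed within the spread between mice. Acan was at 50.4 ± 20.6 CPM (n = 3) in Smad3+/+ and 53.7 ± 21.9 (n = 6) in the libraries labelled Smad3SmKO. In the same order, Comp was at 3825 ± 668 and 4450 ± 3155, and Spp1 at 6975 ± 7939 and 5326 ± 5114. Chad was at 1308 ± 540 and 1522 ± 1011. It is a gene of the rule, which partly fixes its level in the members, so its values are a description. Smad3 was at 16.2 ± 1.56 and 15.7 ± 8.08, a log2 difference of -0.33 ± 0.453 (edgeR adjusted p = 1).

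The genes with the smallest p values were described by their values alone. Rasd1, a dexamethasone-induced Ras protein, was at 82.3, 92.8 and 58.8 CPM in Smad3+/+ and at 8.97, 23.7, 5.59, 9.99, 23.9 and 16.1 in the libraries labelled Smad3SmKO. The groups did not overlap, and the log2 difference was -2.15 ± 0.412 (edgeR adjusted p = 0.596, unadjusted p = 0.000263). Insig1, a regulator of cholesterol synthesis, was at 58.7 ± 32.4 and 30.8 ± 11.2 CPM (log2 -1.17, edgeR adjusted p = 1), and Dpep1, a membrane dipeptidase, at 88.4 ± 48.0 and 19.8 ± 28.2 (log2 -1.75, edgeR adjusted p = 1), both with overlapping libraries. The chemokines Ccl12 and Ccl4 had the smallest p (edgeR adjusted p = 0.325 for both), but each rested on 1 or a pair of mice: 94 of the Ccl12 UMIs came from Smad3SmKO replicate 6, and Ccl4 was at 134 CPM there, 34.8 in replicate 5 and at most 0.989 in the others.

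**Figure D5:**
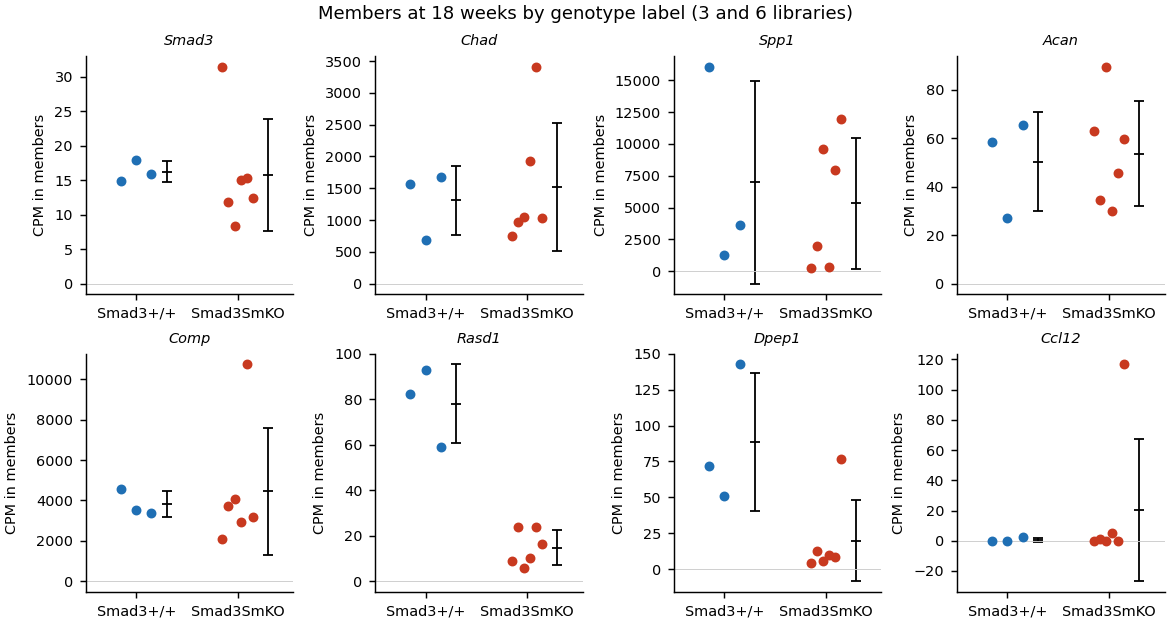
Each panel plots 1 gene as CPM in the members at 18 weeks, 1 point per library, with the mean and SD beside each genotype label (3 and 6 libraries). Smad3, Chad, Spp1, Acan and Comp overlap, Rasd1 does not (58.8 to 92.8 against 5.59 to 23.9), and the Ccl12 mean of the libraries labelled Smad3SmKO is set by 1 mouse. Chad is a gene of the rule, which partly fixes its level here.

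At 10 weeks the gene levels of the members could be compared only between 1 Smad3+/+ library (replicate 2, with 28 members) and 2 labelled Smad3SmKO, with the spread taken from the other groups. edgeR called 2 of 6798 genes, both lower in the latter (0.0294%), and 319 (4.69%) had an unadjusted p under 0.05. Igfbp6, an insulin-like growth factor binding protein, was at 1044 CPM against 81.7 and 120 (log2 -3.44), and Lsp1, an actin-binding protein of leukocytes, at 797 against 124 and 116 (log2 -2.78), each with an edgeR adjusted p of 0.0226. Both calls were lost, with 0 genes called, without either library labelled Smad3SmKO, without cells holding Ptprc, Pecam1 or Myh6, and with cells thinned to 2000 UMIs. The control library that was not fitted, with 8 members, had Igfbp6 at 250 and Lsp1 at 114 CPM. Both libraries labelled Smad3SmKO had a tracer label that did not match their GFP counts. For the difference of the genotype effect between 18 and 10 weeks, edgeR called 0 of 6798 genes (0%), with 302 (4.44%) at an unadjusted p under 0.05.

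The effect of genotype at 18 weeks was also set against that in the other fibroblasts of the same mice. edgeR's interaction test called 57 of 15054 genes (0.379%), 21 with a higher difference in the members and 36 with a lower one, in a fit where every gene shared 1 estimate of the spread. At an unadjusted p under 0.05 there were 3.77%. Without Smad3+/+ replicate 5 edgeR called 99 genes. DESeq2 called 2 genes, Spp1 and Dpep1, and limma 0, with 451 at an unadjusted p under 0.05. Spp1 had the smallest p, with an interaction of -2.85 on the log2 scale (edgeR adjusted p = 1.15e-64, DESeq2 adjusted p = 0.000253, limma adjusted p = 1), while its level in the members themselves ranged from 224 to 16040 CPM. Dpep1 was at -1.98 (DESeq2 adjusted p = 0.0251). In the other fibroblasts alone edgeR called 0 of 15252 genes at 18 weeks, with 555 (3.64%) at an unadjusted p under 0.05.

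GFP, the mark of recombination by Myh11-CreER in the mice that carry the tracer, was found in 2 of 239 members (0.837%, exact binomial 95% interval 0.102 to 2.99) of the 7 libraries with GFP counts. It was found in 116 of 16567 other fibroblasts (0.700%) and in 1116 of 7252 cells of the smooth muscle gate (15.4%), at median depths of 6783, 5223 and 7276.5 UMIs. The 2 members with GFP came from 2 libraries. These shares are over cells pooled across mice, so the interval covers counting error only and not the spread between mice. Whether members come from recombined smooth muscle cells was not tested.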

How the data were processed

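The deposited matrices held raw UMI counts per gene and cell barcode for 31055 features, which the authors made from 10x 3′ v3 libraries against mm10 with a GFP sequence added. The submitters' processing notes name Cell Ranger 6 and Seurat 4, while the matrix headers name Cell Ranger 4.0.0. No reads were used. Groups, batches and digestion times came from the labels, which give no replicate numbers, so replicates were numbered in accession order.

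Counts were summed per library over members and over other fibroblasts. The members and the gene lists were chosen with earlier results of these data known. Sums of the 12 libraries with at least 10 members were tested with edgeR 4.0.16 (TMM scaling, filterByExpr, quasi-likelihood F test, Benjamini-Hochberg adjustment), in R 4.3.3. Members and other fibroblasts were compared with the library as a block, and a call also needed a log2 difference of at least 1. Genotype was tested with batch as a covariate, and its interaction with cell kind with both. The study tested single cells, which are not replicates. DESeq2 1.42.0 and limma 3.58.1 were alternatives, as were libraries left out, no filter on low counts, at least 3 of the 4 genes, thinning to 2000 UMIs, Smad3+/+ or 18-week libraries alone, and libraries whose tracer label and GFP match. The last 3 of these were added after seeing the data. Shares were compared by exact two-sided permutation over libraries with scipy 1.17.1 under Python 3.11.15, counts were handled with pandas 2.3.3 and numpy 2.4.6, and figures were drawn with matplotlib 3.10.9.

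Each mouse gave 1 library. The fitted libraries held 6357483 UMIs in members and 279733746 in other fibroblasts. Intervals and floors (3 counts) cover counting error only. On simulated counts with 100 genes changed by each size, the comparison of members with other fibroblasts recovered 99% of 4-fold and 90% of 2-fold changes (10081 genes), and genotype at 18 weeks 99% and 74% (2312 genes). Genotype at 10 weeks recovered 63% and 7% (2312 genes), and the interaction 71% and 21% (10081 genes). The simulations kept only genes above the count minimum in nearly all libraries, which are fewer and more abundant than those tested, so recovery over all tested genes was not measured. They also gave every gene the same spread and held no effect of batch or mouse. Genes such as Spp1 varied widely between mice, so recovery at the real spread was not measured either.

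Genes were named by rule: any gene of the cartilage, tendon, mineral and TGF-beta lists, the called genes of other lists, the 15 highest and 10 lowest called genes that moved the same way in all 12 libraries, and for genotype the genes called or, where none were, those with the smallest p. Gene positions are from GENCODE M21 (GRCm38), to which 30934 of the features were matched, and start regions from RefSeq (GRCm38.p6). Results for some genes are not reported here.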

Additional observations from a re-analysis of the deposited data

Results flagged for a closer look

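Some values of single mice stood apart from the other libraries of their group. Among the 6 fitted libraries labelled Smad3SmKO at 18 weeks, replicate 5 had Cilp2 at 616 CPM and Comp at 10741 CPM in the members. Replicate 1 had Smad3 at 31.4 CPM, from 20 members with 222930 UMIs together. Each of these values lay farther from its nearest neighbour than Dixon's test allows, which chance alone would mark in about 1 in 20 groups. In the same libraries Chad, Thbs4, Ucma, Spp1, Acan, Cyp26a1, Scx and Col2a1 were tried as well and not marked. Nor were the member shares of either genotype label at 18 weeks. Cilp2 is a gene of the rule, so its value is a description.

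The effect of the genotype label at 18 weeks differed between the members and the other fibroblasts for 57 genes in edgeR's interaction test, of which the 10 with the smallest p are given here on the log2 scale. It was lower in the members for Spp1 (-2.85), Dpep1 (-1.98), Gadd45b (-1.34) and Tcap (-2.99). It was higher for Cd74 (2.63), Myoc (2.08), Ptgds (2.83), Car3 (2.04), Cxcl2 (2.02) and Pnoc (6.24). DESeq2 called Spp1 and Dpep1 among them and limma called 0 of 15054 genes, and with cells thinned to 2000 UMIs edgeR called Spp1, Myoc and Ptgds among the 10, while Cd74, Dpep1, Gadd45b, Car3, Cxcl2, Tcap and Pnoc lost the call.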

How the results depend on the processing

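The comparison of members with other fibroblasts called 1060 genes. It called 1707 with no filter on low counts and 515 with cells thinned to 2000 UMIs, of which 418 were shared with the 1060, and leaving out 1 library gave 992 to 1074. Of 124 named genes, 27 lost the call under at least 1 setting and only Lyz2 reversed, at 0.30 without cells holding Ptprc, Pecam1 or Myh6; the cause was not tested. Of the 14 tested cartilage matrix genes 13 were called, against 7 of 7 tested after thinning, 16 of 16 with at least 3 of the 4 genes and 14 of 16 in Smad3+/+ libraries alone.

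The difference in share at 18 weeks, 0.345 percentage points, turned to -0.0273 with at least 3 of the 4 genes and to -0.00347 in libraries whose tracer label and GFP match, and leaving out 1 library gave 0.0931 to 0.909. No setting reached an exact permutation p under 0.05. For genotype in the members at 18 weeks edgeR called 0 genes, 30 with no filter, 1 (Penk) with at least 3 of the 4 genes, and 0 to 1 on leaving out a library (Cxcl2, without Smad3+/+ replicate 1). At 10 weeks the 2 calls became 25 with no filter, 0 without cells holding other markers, 0 after thinning, and 0 to 2 on leaving out a library (0 without either Smad3SmKO library). For the difference between times, 0 calls became 2 with DESeq2, 25 with no filter, 1 with at least 20 members per library, and 0 to 1 on leaving out a library (1 without Smad3+/+ replicate 2 or Smad3SmKO replicate 4 at 18 weeks). The 57 interaction calls became 2 with DESeq2, 0 with limma, 25 with at least 3 of the 4 genes, 6 after thinning and 110 in libraries whose tracer label and GFP match. Leaving out a library gave 37 (without Smad3SmKO replicate 2) to 100 (without Smad3SmKO replicate 6), and 99 without Smad3+/+ replicate 5, all at 18 weeks.

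With at least 3 of the 4 genes, and without Smad3+/+ replicate 2 at 10 weeks, no control library was left at that time, so its comparisons could not be computed. No paired analysis was possible because the labels give no replicate numbers. Depth limits the members to genes above a few UMIs per library.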

Other observations

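Ibsp, the bone sialoprotein gene, was not tested because it was sparse, but its counts were concentrated in few cells. The members held 133 UMIs of it in 10 cells, 130 of them in members with both Chad and Cilp2, and the 12 libraries ran from 0 to 371 CPM with 7 at 0. The other fibroblasts held 260 UMIs in 24 cells. Mgp, by contrast, was found in nearly every member, at 40097 ± 15988 CPM (SD, n = 11 libraries) with the pair and 25656 ± 12028 without.

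Rasd1, 1 of 55 genes whose genotype groups did not overlap at 18 weeks, was itself higher in the members than in the other fibroblasts, at 5.59, 22.1 and 92.8 CPM (lowest, median and highest library) against 2.65, 7.59 and 17.4, and was higher in the members of 11 of 12 libraries. At 10 weeks it was at 20.6 CPM in the Smad3+/+ library and 15.1 and 55.8 CPM in the libraries labelled Smad3SmKO, which overlapped. Rasd1 was singled out after its values were seen.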
